A study of Mus musculus with 4 samples.

Results

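Genes for 9 transcription factors that steer helper T cells toward their lineages were followed in naive CD4+ T cells: Tbx21, Eomes, Gata3, Rora, Maf, Bcl6, Nfil3, Runx3 and Tox. They were chosen by name, and each was read from the probe set with the highest mean over the 4 arrays among probe sets that the platform annotation gives exactly 1 gene symbol. All 9 of 9 were found among the 22180 genes with such a probe set, and all 9 were among the 13782 genes that passed the filter on low values. TACI-/- mice, which lack TACI, the receptor encoded by Tnfrsf13b for the cytokines BAFF and APRIL, were compared with WT mice, both of strain C57BL/6. In both genotypes spleen and lymph node tissue was pooled and CD4+ cells with high CD62L, low CD44 and no CD25 were sorted, with no treatment given in the labels. Each genotype had 2 arrays (Affymetrix Mouse Gene 2.0 ST, 1 colour), called biological replicates in the titles; the age of the mice, how many entered a pool and the form of the deleted allele are not given in the sources used here.

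A naive helper T cell holds its fate open until antigen and cytokines push it toward one lineage, and each lineage is anchored by a factor that switches its own cytokine genes on and those of rival lineages off. T-bet (Tbx21) anchors Th1 cells, GATA3 Th2 cells, the ROR receptors Th17 cells and BCL6 follicular helper cells, while c-MAF, EOMES, NFIL3, RUNX3 and TOX act beside them or in other T cells and innate lymphocytes. Several of these genes are transcribed little in resting naive cells, while others, such as Gata3 and Tox, also serve T cell development.

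The sequences just upstream of 3 of the genes with the largest genotype differences are shown so that the letters searched for can be seen in them. RefSeq promoter entries (GRCm38.p6) matched 7 of the 9 genes, all but Maf and Tox, with 9 entries in all since Runx3 and Bcl6 have several starts. Each run below covers the 250 bases before the annotated start, 5′ to 3′ along the gene, and capitals mark any match to the motifs named next.
Nfil3 promoter (chr13:52981040-52981289, - strand): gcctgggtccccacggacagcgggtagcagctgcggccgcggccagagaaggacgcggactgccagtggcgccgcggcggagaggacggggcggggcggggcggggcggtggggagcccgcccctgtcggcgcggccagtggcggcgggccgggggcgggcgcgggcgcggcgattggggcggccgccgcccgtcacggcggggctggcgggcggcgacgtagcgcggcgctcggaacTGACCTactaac
Eomes promoter (chr9:118477939-118478188, + strand): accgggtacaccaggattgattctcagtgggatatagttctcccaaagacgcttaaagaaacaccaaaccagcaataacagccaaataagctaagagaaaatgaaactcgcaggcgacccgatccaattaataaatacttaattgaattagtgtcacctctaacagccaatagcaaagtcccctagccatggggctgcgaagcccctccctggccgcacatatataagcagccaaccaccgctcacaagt
Rora promoter (chr9:68653536-68653785, + strand): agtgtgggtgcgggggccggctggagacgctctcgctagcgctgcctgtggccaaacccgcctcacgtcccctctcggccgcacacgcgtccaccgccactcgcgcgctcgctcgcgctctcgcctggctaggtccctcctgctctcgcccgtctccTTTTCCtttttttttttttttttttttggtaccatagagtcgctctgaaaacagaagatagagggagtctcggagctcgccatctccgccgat

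Short motifs, 8 in all, were searched on both strands of these windows. For nuclear receptors these were AAAGGTCA, the monomer site of the Nr4a proteins, and AGGTCA, the ROR half-site, which also lies inside the first. Factors downstream of antigen receptor and cAMP signals were covered by TGACTCA for AP-1, by GGAAAA as the core bound by NFAT proteins, and by TGACGT as the half-site of the cAMP response element. For other families the letters were AGATAA as read by the zinc fingers of GATA3, TGTGGT as read by Runx proteins, and AGGTGTGA, the T-box half-site. The Nfil3 window held 1 match, a ROR half-site on the opposite strand from 12 to 7 bases before the start, a motif found in 14.0% of the 32851 promoter windows of this length. Rora had 1 match, the NFAT core from 93 to 88 bases before the start, beside a run of T (20.4% of all windows). The Eomes window held none of the 8. Of the other entries, the first of Runx3 held 2 Runx sites, from 134 to 129 and from 126 to 121 bases before its start (14.0% of all windows). Bcl6 had the cAMP response half-site in one entry (6.47% of all windows) and 2 NFAT cores in the other. Gata3, Tbx21 and the second Runx3 entry had no match. Such a match describes letters only. The Nfil3 window was rich in G and C (81.6%), against 61.2% for Rora, 46.4% for Eomes and a median of 52.4% over all windows.

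Before the members, the labels and the sort were checked. Tnfrsf13b was at 2.73 and 3.09 log2 units in TACI-/- cells, against 2.95 and 3.02 in WT cells, below the filter level of 3.74 to 3.77 on all 4 arrays, so it does not check the genotype labels. The T cell genes Cd4 and Cd3e were bright on all 4 arrays (Cd4 at 10.57 and 10.45 in TACI-/- and 10.64 and 10.46 in WT cells), and Cd8a was below the filter on all 4. Cd8b1, the other CD8 chain, was above it on all 4, at 6.11 and 5.73 in TACI-/- and 6.55 and 6.59 in WT cells. The list for CD4 T cells and the sort had 10 tested genes. Both TACI-/- arrays lay below both WT arrays for 4 of them and above for 2. This held for 18.1% and 20.5% of all tested genes. Il7r had a log2 fold change (TACI-/- minus WT) of -0.48, Cd3d -0.30 and Cd28 0.51. The list's summed level was 9423 and 8962 antilog units in TACI-/- cells, against 10454 and 9812 in WT cells. Arrays have no sequencing depth, and 2 arrays a genotype limit the precision. The limma p-values measure only the spread between these samples, each gene's own moderated by that of all tested genes.

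The comparison asked whether naive T cells without TACI differ in the genes that set helper fate. Maf, Nfil3, Eomes and Rora were higher in both TACI-/- arrays than in both WT arrays, by 2.02, 1.79, 1.73 and 1.44-fold, while Bcl6, Runx3 and Gata3 overlapped between the genotypes. The threshold of 0.05 on the limma p, adjusted by Benjamini-Hochberg over all tested genes, was met by 0 of the 9, where 0.138% of the tested genes met it. At an unadjusted limma p under 0.05, 4 of the 9 were higher and 0 lower, where 4.94% of the tested genes were higher and 3.84% lower. Both TACI-/- arrays lay above both WT arrays for 6 of the 9 and below them for 0, where this held for 20.5% and 18.1% of the tested genes. A positive log2 fold change was found in 7 of 9, where 51.8% of the tested genes had one. Members at least 1.5-fold higher numbered 3 of 9, where 1.5% of the tested genes were. The median log2 fold change of the 9 was 0.32, ranging from -0.09 to 1.01, beside a median of 0.01 over all tested genes. In bulk RNA, more cells of a type and more RNA per cell cannot be told apart. The counts describe a short list chosen with earlier results of these data known.

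**Figure D1:**
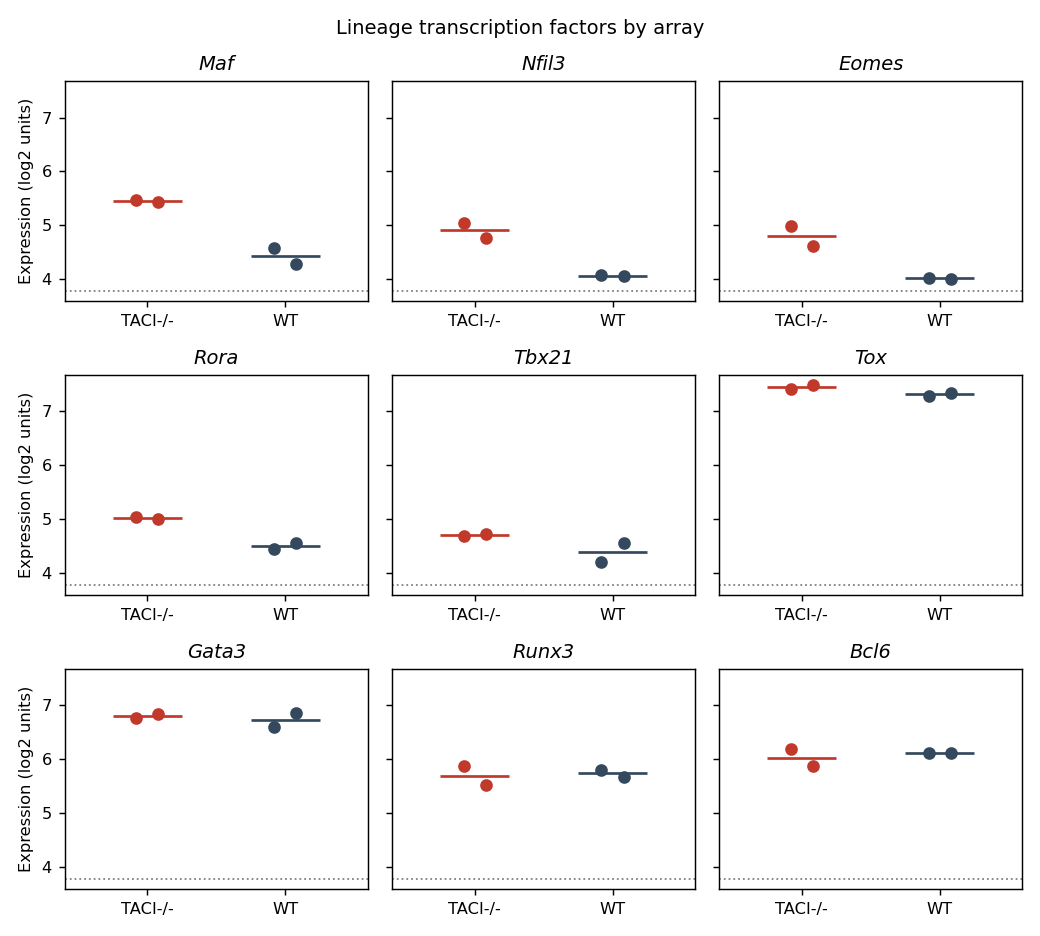
Expression of each of the 9 genes (log2 units, vertical axis) on the TACI-/- and WT arrays; points are single arrays, bars are genotype means (n = 2 each) and the dotted line is the highest filter level, 3.77. All points lie above the line, and Maf, Nfil3, Eomes and Rora show the widest gaps between the genotypes.

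Maf, which encodes c-MAF, a basic leucine zipper factor that drives Il4 in Th2 cells and Il21 and Il10 in other helper cells, differed most. It was at 5.46 and 5.43 log2 units in TACI-/- cells, against 4.57 and 4.29 in WT cells. The lower TACI-/- array stood 0.85 above the higher WT array, while the TACI-/- arrays differed by 0.03 and the WT arrays by 0.29. Its log2 fold change was 1.01 ± 0.15 (moderated SE), with a 95% interval from 0.65 to 1.37, and 39 of the 13782 tested genes had a larger one. The limma p was 0.000339 unadjusted and 0.1 adjusted. It passed, at an adjusted p of 0.0463, only where genes had to reach the 60th percentile of the array, a filter that left 9203 genes to adjust over. Maf entered there through the TACI-/- arrays alone, since both WT arrays lay below that filter's WT levels of 4.63 and 4.65, so the call is not independent support. Over all its alternatives the adjusted p ran from 0.0463 to 0.645. A second, dimmer Maf probe set was at 4.48 and 3.54 in TACI-/- cells, against 3.05 and 3.30 in WT cells, above the filter on TACI-/- replicate 1 alone, so it gives no size.

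Nfil3 encodes another basic leucine zipper factor, a repressor that innate lymphoid and NK cells need to develop and that in Th17 cells restrains the gene for RORγt. It was at 5.04 and 4.76 log2 units in TACI-/- cells, against 4.07 and 4.05 in WT cells. The genotypes were 0.70 apart at their nearest, and the WT arrays were almost level while TACI-/- replicate 1 exceeded replicate 2 by 0.28. The log2 fold change was 0.84 ± 0.15 (SE; 95% interval 0.49 to 1.20), with an unadjusted limma p of 0.000923 and an adjusted p of 0.189.

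Eomes and Tbx21 encode related T-box factors. T-bet is the Th1 anchor and switches on Ifng, and EOMES is best known from memory CD8 T cells and NK cells. Eomes was at 4.99 and 4.62 log2 units in TACI-/- cells, against 4.01 and 4.01 in WT cells, close to the filter level in the WT arrays. The nearest arrays of the genotypes were 0.60 apart, with a log2 fold change of 0.79 ± 0.16 (SE; 95% interval 0.40 to 1.18) and a limma p of 0.00215 unadjusted and 0.256 adjusted. Tbx21 was at 4.69 and 4.72 in TACI-/- cells, against 4.20 and 4.56 in WT cells. Here the WT arrays spread by 0.35, more than the 0.13 between the genotypes at their nearest. Its log2 fold change was 0.32 ± 0.16 (SE; 95% interval -0.06 to 0.71; limma adjusted p = 0.632), and it was 0.15 without WT replicate 1 and 0.50 without WT replicate 2. The intervals of Eomes and Tbx21 overlap, and the difference between them was not tested. Tbx21 lies on chromosome 11, as does Tnfrsf13b, while Maf, Nfil3, Eomes and Rora lie on chromosomes 8, 13, 9 and 9.

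Rora encodes RORα, which acts with RORγt in Th17 cells and is needed for group 2 innate lymphoid cells. Rora was at 5.05 and 4.998 log2 units in TACI-/- cells, against 4.45 and 4.55 in WT cells. Replicates of either genotype lay within 0.10 of each other, and the genotypes 0.45 apart at their nearest. The log2 fold change was 0.52 ± 0.13 (SE; 95% interval 0.21 to 0.84), with a limma p of 0.00563 unadjusted and 0.323 adjusted.

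The anchors of the Th2 and follicular helper lineages showed no such gap. Gata3, which also guides thymocytes to the CD4 lineage, was at 6.76 and 6.84 in TACI-/- cells, against 6.59 and 6.86 in WT cells. Its log2 fold change was 0.08 (95% interval -0.28 to 0.43), and a second, dimmer Gata3 probe set, at 5.35 and 4.62 in TACI-/- and 4.51 and 5.10 in WT cells, overlapped too. Bcl6, the repressor that anchors follicular helper cells, was at 6.18 and 5.87 in TACI-/- cells, against 6.12 and 6.11 in WT cells. Only TACI-/- replicate 2 stood below the other arrays, and the log2 fold change of -0.09 (-0.46 to 0.28) was 0.07 without that array.

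Runx3, which silences Cd4 in the CD8 lineage and acts with T-bet in Th1 cells, was at 5.86 and 5.52 in TACI-/- cells, against 5.80 and 5.67 in WT cells. TACI-/- replicates 1 and 2 were the highest and the lowest of the 4 arrays. Its log2 fold change of -0.04 (95% interval -0.43 to 0.34) was 0.13 without TACI-/- replicate 2 and 0.02 without WT replicate 1. Tox, a nuclear factor needed for CD4 T cell development in the thymus, was at 7.42 and 7.49 in TACI-/- cells, against 7.29 and 7.34 in WT cells. The genotypes did not overlap but were only 0.08 apart, with a log2 fold change of 0.14 (95% interval -0.17 to 0.45). The limma adjusted p of Gata3, Bcl6, Runx3 and Tox lay between 0.817 and 0.975. Their intervals reach to -0.46 and 0.45, so the genes are not shown to be alike in both genotypes.

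**Figure D2:**
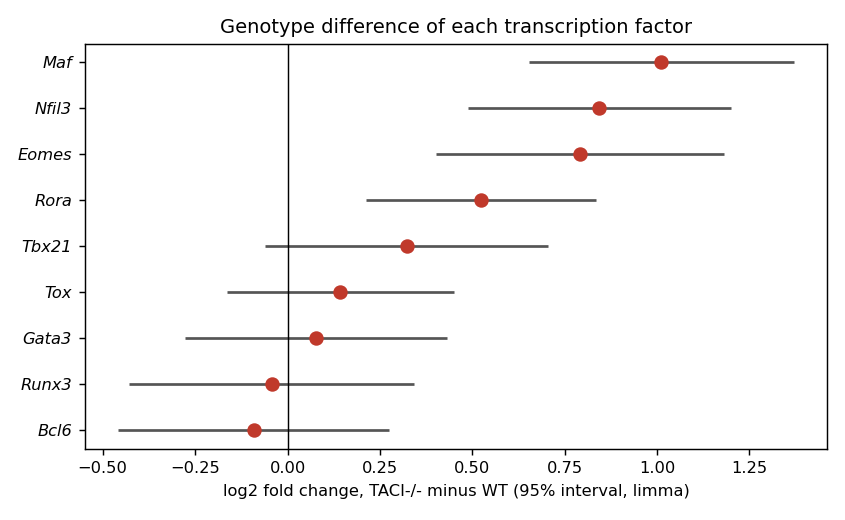
Log2 fold change of each gene, TACI-/- minus WT (horizontal axis), with limma's 95% interval as a line. The intervals of Maf, Nfil3, Eomes and Rora lie above 0, and those of the other 5 genes include 0.

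Leaving out an array shows how far single libraries carry these values. TACI-/- replicate 1 was the highest array for 6 of the 9 genes. Without it the log2 fold change was 0.61 for Eomes and 0.70 for Nfil3, and without TACI-/- replicate 2 it was 0.98 for both. Maf ran from 0.87 without WT replicate 2 to 1.16 without WT replicate 1, and Rora from 0.48 to 0.57. Unadjusted limma p for these 4 genes stayed under 0.05 in each of the 4 fits, with the highest 0.0377, for Rora without WT replicate 1. Since their genotypes do not overlap, the direction of these fits was fixed beforehand. No member passed the adjusted threshold with an array left out.

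**Figure D3:**
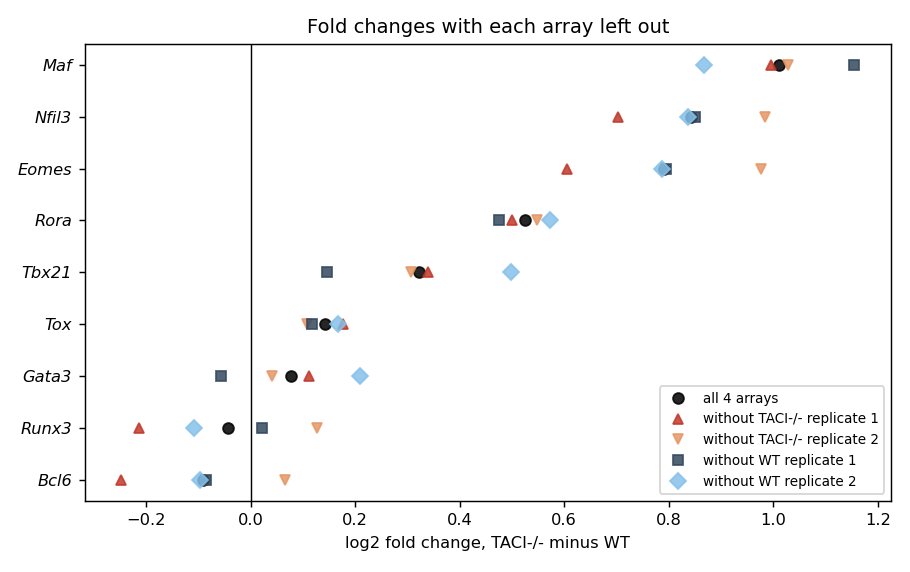
Log2 fold change of each gene, TACI-/- minus WT (horizontal axis), with all 4 arrays and with each array left out. Eomes spreads from 0.61 to 0.98 and Rora from 0.48 to 0.57, while Gata3, Runx3 and Bcl6 have points on both sides of 0.

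Some genes followed the members closely across the 4 arrays, measured as the root mean square difference between values centred on each gene's own mean. Nearest to Eomes was Tnfrsf9, the costimulatory receptor 4-1BB, at 0.02 log2 units, followed by Nfil3 at 0.04 and Spty2d1 at 0.05. For Nfil3 the nearest were Spty2d1, Tnfrsf9 and Eomes, from 0.03 to 0.04. Nearest to Maf were the chemokine receptor gene Cxcr4 at 0.05, then Ifit3b and Gm5433 at 0.06 each. In WT cells neither Ifit3b (3.50 and 3.13) nor Gm5433 (3.24 and 3.03) reached the filter level of 3.74. Their TACI-/- values alone brought these genes into the test, so the direction they share with Maf was fixed by the filter. Cxcr4 was at 8.23 and 8.27 in TACI-/- cells, against 7.28 and 7.07 in WT cells (log2 fold change 1.08, limma adjusted p = 0.0819). Tnfrsf9 was at 6.18 and 5.86 in TACI-/- cells, against 5.25 and 5.24 in WT cells. With 4 arrays this likeness is a description, and it mostly picks genes with a genotype difference of like size.

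**Figure D4:**
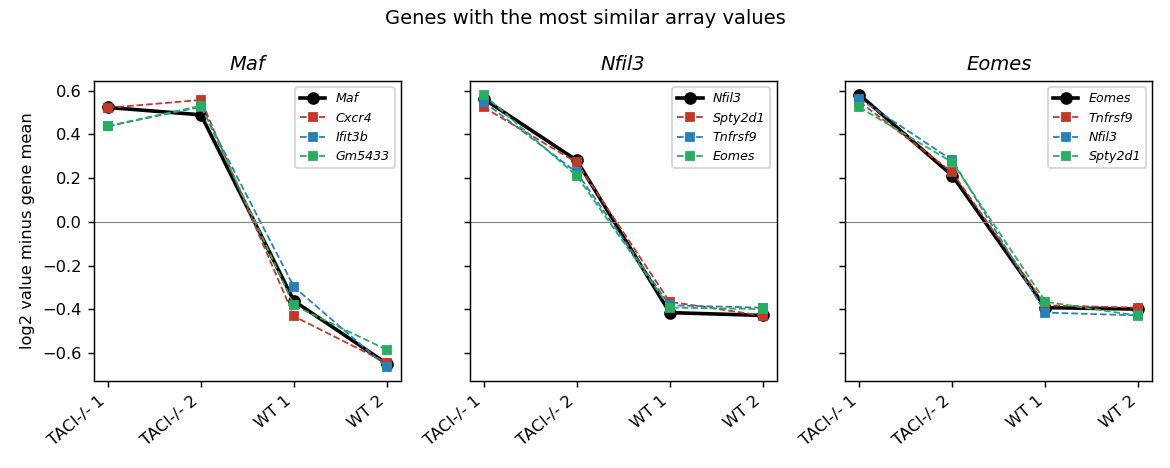
Values of Maf, Nfil3 and Eomes (black) and of the 3 nearest genes of each (coloured, dashed) on the 4 arrays, as log2 units from the gene's own mean; lines only join the points of a gene. Eomes and Nfil3 share their neighbours Tnfrsf9 and Spty2d1.

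Of 43 other regulators of helper fate, 38 were tested and 1 passed over all genes, Irf4. Irf4, induced by antigen receptor signals and needed in several helper lineages, was at 5.70 and 5.82 in TACI-/- cells, against 4.13 and 4.16 in WT cells (log2 fold change 1.61 ± 0.13, SE, limma adjusted p = 0.0246). At an unadjusted p under 0.05, 10 of the 38 were higher and 1 lower (Zbtb16, above the filter only in WT cells), beside 4.94% and 3.84% of all tested genes, shares that serve as background for the lists that follow too. The median log2 fold change was 0.13. Ikzf2 (Helios) was above the filter only in TACI-/- cells, at 4.33 and 4.44, against 3.41 and 3.49 in WT cells. Junb, an AP-1 subunit, had a log2 fold change of 0.92 and Bhlhe40, a helix-loop-helix factor of cytokine-producing cells, 0.55 (limma adjusted p 0.189 and 0.32). Of the signal transducers upstream of the lineage anchors, 5 were tested, with log2 fold changes of 0.04 for Stat3, -0.01 for Stat4, 0.13 for Stat5a, 0.23 for Stat5b and -0.14 for Stat6, none at an unadjusted p under 0.05.

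Among relatives of the members by family, 19 of 25 with a probe set were tested and none passed over all genes (limma; 2 higher and 0 lower at an unadjusted p under 0.05; median log2 fold change 0.07). Mafk, a small MAF protein that lacks an activation domain, was at 5.97 and 6.06 in TACI-/- cells, against 5.44 and 5.49 in WT cells (log2 fold change 0.55, adjusted p = 0.302). Nr1d2, the repressor REV-ERBβ that binds the same elements as RORα, had a log2 fold change of 0.48 (adjusted p = 0.478), Tbx6 -0.38 and Cbfb, the partner of all Runx proteins, -0.31. These values span both directions, and Runx1 had -0.07.

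The genes that these factors control were then read by lineage. Several signature cytokine genes were below the filter on all 4 arrays, which leaves their differences unmeasured. Ifng of Th1 cells was at 3.12 and 3.05 in TACI-/- and 3.23 and 3.26 in WT cells, and Il4, Il5, Il17a, Il22 and Il21 were below it likewise, while Il17f reached it on 1 array and Il13 on 3. Of the Th1 targets 14 of 18 were tested, with 4 higher and 0 lower at an unadjusted p under 0.05 and a median log2 fold change of 0.26. Il12rb2, with a log2 fold change of 0.29, was among the 14 only through its TACI-/- arrays, which fixed its sign. Fasl, the death ligand, had 0.83, Tnf 0.53, and the chemokine genes Xcl1 and Ccl3 0.46 each (Ccl3 with 1 WT array below the filter). Of the Th2 targets 9 of 14 with a probe set were tested, with 2 higher and 1 lower and a median of 0.25. Ccr8, a chemokine receptor, had 0.75 and Ccr4 0.56. Ccr4 was tested only through its TACI-/- arrays, with both WT arrays below the filter, which fixed its sign. Il13 had -0.62, at 3.65 and 4.08 in TACI-/- and 4.50 and 4.48 in WT cells, and Ecm1 -0.26. Members of both lists missed the threshold over all genes (limma adjusted p from 0.221).

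Follicular helper targets, 15 tested, had a median log2 fold change of 0.03, with 2 higher and 1 lower at an unadjusted p under 0.05 and none past the adjusted threshold (limma). Cxcr5, the receptor that brings T cells to B cell follicles, was at 6.25 and 6.05 in TACI-/- cells, against 5.11 and 5.57 in WT cells (log2 fold change 0.81, adjusted p = 0.299). Tnfsf8 (CD30 ligand) had -0.41, the nucleotide receptor gene P2rx7 0.34 and the inhibitory receptor gene Pdcd1 0.26. Of the Th17 targets only 4 of 13 were tested, with log2 fold changes from -0.17 (Il12rb1) to 0.09 (Il6ra); Csf2 had -0.16 and Ccl20 0.00, and none had an unadjusted p under 0.05. Of 6 tested targets tied to RUNX3 and CD8 fate, Cd8b1 had -0.65, Crtam, an adhesion receptor of cytotoxic T cells, 0.58 (adjusted p 0.327 and 0.429), Gzmk 0.12 and Prf1 0.08.

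**Figure D5:**
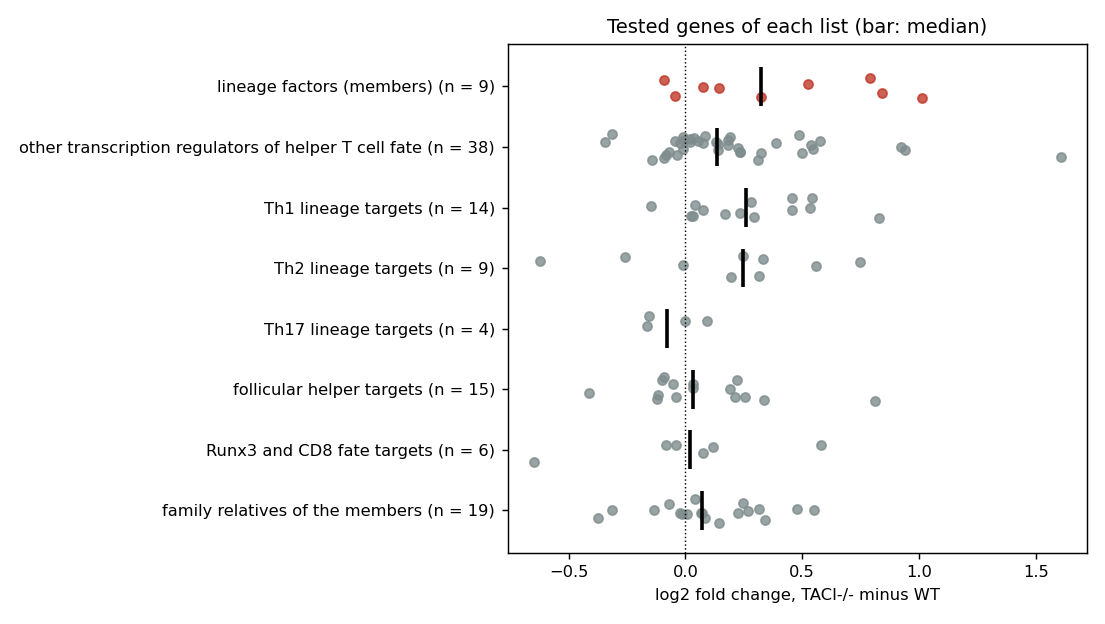
Log2 fold change, TACI-/- minus WT (horizontal axis), of each tested gene in the 9 lineage factors and in 7 related lists; the black bar is the list's median. The lineage factors run from -0.09 to 1.01, and the rightmost point among the other regulators is Irf4 at 1.61.

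Markers of other cells that express these factors were read beside them. Memory or activated T cells hold more Eomes and Maf than naive cells as a rule, and the marker list for them had 12 of 14 tested genes positive. Of all tested genes 51.8% were positive, a share that serves as background for the cell type lists that follow too. Tigit (log2 fold change 1.10) was tested only through its TACI-/- arrays, which fixed its sign; of the other 13 genes 11 were positive. The list's summed level was 1636 and 1507 antilog units in TACI-/- cells, against 1092 and 1017 in WT cells. Its brightest gene, Cd69, at 9.57 and 9.48 in TACI-/- cells, against 8.86 and 8.56 in WT cells, gave the largest part of that sum. Only 1 gene of the list passed over all genes, Ctla4. At an unadjusted limma p under 0.05, 6 were higher and 0 lower, with log2 fold changes of 1.11 for Il2rb, 0.82 for Cd69, 0.47 for Ahnak and 0.32 for Id2; Cd44, whose protein the sort selected to be low, had 0.19, and Cxcr6 -0.14. Regulatory T cells can express Maf, Rora and Nfil3, and their list had 10 of 12 tested genes positive, with summed levels of 720 and 698 in TACI-/- cells, against 534 and 515 in WT cells. Ikzf2 and Lrrc32 entered only through their TACI-/- arrays, and of the other 10 genes 8 were positive. Foxp3, their defining factor, was at 6.19 and 5.98 in TACI-/- cells, against 5.63 and 5.38 in WT cells (log2 fold change 0.58, limma adjusted p = 0.354). At an unadjusted limma p under 0.05, 6 genes of this list were higher, Ikzf2 among them, and 0 lower. Ctla4, which is on the memory list too, passed over all genes (log2 fold change 1.57, limma adjusted p = 0.0246). Tnfrsf9, the gene nearest to Eomes, had 0.77, Tnfrsf18 0.50 and Tnfrsf4 0.43, while Capg had -0.15. The sort, by low CD44 and no CD25, is meant to remove memory and regulatory T cells. Il2ra, the gene for CD25, was at 5.25 and 4.83 in TACI-/- cells, against 4.85 and 4.65 in WT cells. The part of such cells in the values of Maf, Nfil3, Eomes and Rora was not tested.

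NK and innate lymphoid cells express Eomes, Nfil3 and Rora, and 4 of 8 tested markers of theirs were positive. Zbtb16 and Kit were tested only through their WT arrays, which fixed their negative sign. Of the other 6 genes 4 were positive. Over all 8, summed levels were 350.2 and 331 antilog units in TACI-/- cells, against 314 and 327 in WT cells. Without Il2rb, which the memory list also holds, they were 265 and 265, against 279 and 293. At an unadjusted p under 0.05, Il2rb was higher and Klrd1, Fcer1g (log2 fold change -0.36) and Zbtb16 lower. Ncr1 reached the filter on WT replicate 2 alone, and Klrb1c, Klrk1, Klre1, Gzma and Gzmb were below it on all 4 arrays. Klrd1, shared by NK and CD8 T cells, was at 4.76 and 5.06 in TACI-/- cells, against 5.79 and 5.76 in WT cells (log2 fold change -0.87, adjusted p = 0.189). CD8 markers summed to 275 and 204 in TACI-/- and 271 and 256 in WT cells, with 3 of 5 positive. The NKT and gamma delta list had 3 tested genes, of which Slamf1 had 0.45 and Zbtb16, the factor that defines NKT cells, -0.34, at 3.57 and 3.64 in TACI-/- cells (below the filter) and 4.03 and 3.87 in WT cells. Myeloid and dendritic markers were positive in 3 of 7, with a median of 0.00. At an unadjusted limma p under 0.05, Cd68 (log2 fold change 0.71) was higher, and Lyz2 (-0.49) and Ly6c2 (-0.41) were lower. B cell markers were positive in 8 of 9, with a median of 0.35. Higher at an unadjusted p under 0.05 were Ly86 (0.76, tested through its TACI-/- arrays alone), H2-Aa (0.57), H2-Ab1 (0.53) and Bank1 (0.44). Their part in the members' values was not tested. The B cell markers summed to 1322 and 1199 in TACI-/- and 1349 and 1472 in WT cells. These sums come mostly from Ighm, the negative one, at 10.01 and 9.92 in TACI-/- cells, against 10.19 and 10.31 in WT cells. The mean log2 level of the 9 genes went the other way, at 5.51 and 5.26 in TACI-/- cells, against 4.97 and 5.15 in WT cells. Ms4a1 and Blk were below the filter on all 4 arrays.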

How the data were processed

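The deposited values are log2 expression, 1 for each probe set on each array; RMA and Partek are named, without versions, in the submitters' processing notes, and base 2 was inferred from RMA and the range of the values. RMA as commonly run corrects the background, quantile normalizes and summarises the probes of a set, and the fold changes of dim genes come out compressed. All 4 columns were used.

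Of 41345 probe sets, 23521 had 1 gene symbol in the platform annotation, 1814 several and 16010 none there. The test took in genes that reached, on 2 or more arrays, the 40th percentile of an array's values over probe sets with a single symbol. limma 3.58.1 (R 4.3.3) fitted genotype alone to all 4 arrays, with eBayes and two-sided tests. The p-values were adjusted by Benjamini-Hochberg over 13782 genes, with a threshold of 0.05. The fit was also run on data simulated from limma's own fitted variances, which cannot show whether the model suits these arrays. Fold changes are TACI-/- minus WT, and summed levels add antilog values over a list's tested genes. A stretch of promoter was searched by exact match.

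The members and lists were chosen with earlier results of these data known. Named genes are the 9 members, the 4 tested genes of lowest p per list and any past the threshold, cell type markers, and the 3 nearest genes of the 3 members of lowest p; the STAT genes, Runx1 and the signature cytokine genes were added after their values were seen. List genes lacking such a probe set were not analysed here. Alternatives were other filters, centring, quantile normalization, probe set rules, variance models, a replicate block and leaving out each array.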

Additional observations from a re-analysis of the deposited data

How the results depend on the processing

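Over 15 alternatives the count of members past adjusted p 0.05 (limma) was 0 in all but one: with the filter at the 60th percentile it was 1, Maf, among 8 members tested there, since Eomes did not reach that filter. Maf, Nfil3, Rora and Tbx21 entered there through the TACI-/- arrays alone, where they are higher. The genotype difference thus took part in the filtering, and the call for Maf is no support. Without variance moderation 3 members had an unadjusted p under 0.05, as Eomes had 0.0507, and the count was 4 or 5 with an array left out. Log2 fold changes near 0 reversed with an array left out: Gata3 ran from -0.056 (without WT replicate 1) to 0.21, Bcl6 from -0.25 to 0.065 (without TACI-/- replicate 2), and Runx3 from -0.21 to 0.13 (without TACI-/- replicate 2), with 0.02 without WT replicate 1. The count past adjusted p was 0 in each fit that left out an array, where the lone array of a genotype is assumed to vary like the other genotype. Over all tested genes the count past adjusted p was 19, against 3 with no filter on low values, 45 and 35 with the stricter filters, 46 with a variance trend, 12 after quantile normalization again and 0 without moderation or with any array left out. The labels give no batch, animal or day that pairs the replicate numbers between the genotypes. Same-numbered arrays had deviations correlated at -0.03. With 2 arrays a genotype this is a single value whose sign flips for the other pairing. It does not settle whether the numbers are paired. With a replicate block 0 members passed the adjusted threshold, 4 had an unadjusted p under 0.05, and 13 of all genes passed. Signal near the filter limits Eomes and Nfil3 in WT cells and several signature cytokine genes in both genotypes.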
